A study of Mus musculus with 58 samples.

Results

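Meis1, Meis2, Meis3, Pbx2, Pbx3, Cdx1 and Cdx2 are 7 homeobox genes that act with or upstream of the Hox genes, and they were followed here by symbol among 20177 genes. They were measured in mouse E14 embryonic stem (mES) cells in which DPY30, a core subunit of the complexes that methylate lysine 4 of histone H3, could be degraded at will. The Quant-seq libraries, which count the 3′ ends of polyadenylated RNA, came from DPY30–mAID cells without 4SU label. These cells were differentiated with 1 µM retinoic acid (RA) in medium without LIF, with DMSO or with auxin, the ligand that directs DPY30–mAID to degradation. DMSO samples were taken at 0 h, 8 h, day 1, day 2, day 4 and day 6, and auxin-treated samples at the same times other than 0 h, with 2 libraries each. Both day 6 libraries with DMSO contained the same counts and were used as 1 sample, so 21 samples in 11 groups were compared. SLAM-seq libraries, in which newly made RNA carries 4-thiouridine (4SU, 100 µM for 60 min) and is read by its T>C mismatches, came from undifferentiated cells of 3 lines. DPY30–mAID and RBBP5–FKBP cells (the latter a clonal line in which dTAG-13 degrades RBBP5, another core subunit) had 3 libraries at each of 0 h, 2 h, 8 h and 24 h of ligand. DPY30–mAID cells that also lacked the H3K4 demethylase genes Kdm5a and Kdm5b (DPY30–mAID Kdm5a/b dKO, 2 clones by the methods) had 2 libraries at each of 0 h, 2 h, 4 h, 8 h, 24 h and 48 h of auxin, and the clone behind each library was not given. All DPY30–mAID cells carry an OsTIR1 transgene, with DMSO as with auxin.

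Meis and Pbx proteins are homeodomain factors of the TALE class. They bind DNA together with Hox proteins, which raises the affinity and selectivity of the Hox factor, and Meis binding to Pbx keeps Pbx in the nucleus. Cdx proteins are caudal-type homeodomain factors that activate posterior Hox genes in the tail end of the embryo. Cdx1 is a direct target of RA, and Cdx2 is also required for the trophectoderm and the intestinal epithelium. RA is the standard signal for activating Hox genes, and their cofactors, in cultured ES cells.

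Positions refer to GRCm38 with the GENCODE vM21 annotation. Meis1 (ENSMUSG00000020160) lies on chromosome 11 from 18879817 to 19018985 on the minus strand and Meis2 (ENSMUSG00000027210) on chromosome 2 from 115863064 to 116065839 on the minus strand. Meis3 (ENSMUSG00000041420) lies on chromosome 7 from 16175090 to 16186504 on the plus strand. Pbx2 (ENSMUSG00000034673) lies on chromosome 17 from 34591266 to 34597400 on the plus strand and Pbx3 (ENSMUSG00000038718) on chromosome 2 from 34171457 to 34373142 on the minus strand. Cdx2 (ENSMUSG00000029646) lies on chromosome 5 from 147300805 to 147307270 on the minus strand, and Cdx1 has the identifier ENSMUSG00000024619. All Quant-seq reads of the other 6 genes, and 477 of 479 (99.6%) of Meis3, fell in a single interval, the 3′ UTR farthest downstream, and at most 0.483% of a gene's reads mapped to more than 1 place, so the paralogues were told apart by their 3′ UTRs.

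RefSeq promoters of build GRCm38.p6 were matched for Meis1, Meis2, Meis3, Pbx2 and Cdx2. RefSeq's start lies inside the GENCODE gene by 16 bases in Meis1, 21 in Cdx2, 305 in Meis3, 993 in Pbx2 and 1220 in Meis2, where longer transcripts begin upstream. Within the 250 bases before the RefSeq start, Pbx2, which was already read at 0 h, had 27 CpG dinucleotides, more than 91.4% of 32851 promoters. Meis1 and Cdx2 had 13 each, Meis3 12 and Meis2 7, against a median of 6 over all promoters. None of the 5 windows held the nuclear receptor half-site AGGTCA on either strand, which 14.02% of all windows of this length held, or the Meis core TGACAG, which 15.9% held. The Cdx core CAATAAA occurred once, in the window of Meis2, and in 4.20% of all windows. The stretches without an annotated exon are shown for Meis1 and Meis2, which rose over the course, and for Cdx2, which differed between auxin and DMSO, and capitals mark CpG dinucleotides. The Meis1 stretch is chr11:19018986-19019219, the Meis2 stretch chr2:116064722-116064801 and the Cdx2 stretch chr5:147307271-147307499, each written 5′ to 3′ on the minus strand. The Meis2 stretch is inside the GENCODE gene, between exons.
Meis1: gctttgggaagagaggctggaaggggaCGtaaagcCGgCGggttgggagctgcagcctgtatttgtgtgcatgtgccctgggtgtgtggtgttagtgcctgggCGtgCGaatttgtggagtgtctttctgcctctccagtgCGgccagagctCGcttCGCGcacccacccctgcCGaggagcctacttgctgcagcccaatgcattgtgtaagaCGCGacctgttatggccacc
Meis2: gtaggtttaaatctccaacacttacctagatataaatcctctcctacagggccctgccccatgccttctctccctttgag
Cdx2: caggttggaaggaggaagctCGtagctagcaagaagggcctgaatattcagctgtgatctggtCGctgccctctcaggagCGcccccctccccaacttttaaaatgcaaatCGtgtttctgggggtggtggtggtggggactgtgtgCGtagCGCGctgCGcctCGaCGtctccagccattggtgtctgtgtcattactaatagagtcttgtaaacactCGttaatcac
The Meis1 stretch of 234 bases has 12 CpG dinucleotides, the Cdx2 stretch of 229 bases has 11 and the Meis2 stretch of 80 bases has 0.

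Levels are given as CPM, the gene's reads divided by all counted reads of the library and put on the usual counts-per-million scale, and SD is the spread between the libraries of a group. Quant-seq libraries held 1264241 to 2543632 counted reads. SLAM-seq libraries held 2013350 to 2806821 in DPY30–mAID cells, 5931269 to 7792404 in dKO cells and 1721185 to 2852331 with tagged RBBP5, so low values are most precise in dKO cells. A gene is said to rise, fall or change where edgeR's quasi-likelihood test, fitted over all genes, gave a p below 0.05 after Benjamini-Hochberg adjustment, together with a log2 fold change beyond 1 in either direction. All 7 genes were tested over the RA course, among 11415 genes that averaged 10 or more reads in some group. Meis1, Meis2, Meis3, Cdx1 and Cdx2 had a lower mean at 0 h and were tested only because of groups where they were higher (for Cdx2, auxin-treated cells of day 2 and day 6), so that counts of them say less than for Pbx2 and Pbx3. At 0 h, Kdm5a was at 95.1 ± 17.9 CPM in DPY30–mAID cells (SD, n = 3) and 26.7 ± 1.01 CPM in dKO cells (SD, n = 2). The RNA of Dpy30 does not check the degron, which acts on the protein. Pou5f1, the defining ES cell marker, was at 1673 ± 151 CPM at 0 h of the RA course (SD, n = 2). The labels do not say which libraries came from separate cultures. The study calls its SLAM-seq libraries biological replicates, and p-values measure the spread between these libraries.

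During RA treatment with DMSO, the Meis genes and Pbx3 rose and stayed high, Cdx1 rose and fell back, Pbx2 went up by less than the fold threshold and Cdx2 had few reads. Meis2, a TALE partner of Pbx and Hox proteins, was at 0.896 and 3.93 CPM at 0 h, 16.2 and 10.5 CPM at 8 h, and 61.3 and 67.2 CPM at day 1. It reached 243 and 247 CPM at day 2, 409 and 421 CPM at day 4, and 275 CPM in the single sample of day 6. Libraries of neighbouring times did not overlap at any step up to day 4. Against 0 h, the log2 fold change of Meis2 was 2.42 at 8 h (standard error 0.38, edgeR adjusted p = 4.35e-05) and 7.18 at day 4 (standard error 0.22, edgeR adjusted p = 1.49e-19). Of the 7 genes, 2 were higher at 8 h (Meis2 and Cdx1), where 3.50% of all genes tested were higher.

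Meis1, its paralogue and also a Pbx partner, passed the test at later times than Meis2. It had 2 and 1 reads at 0 h and 2 and 6 reads at 8 h, then 3.80 and 6.06 CPM at day 1. It reached 42.2 and 35.9 CPM at day 2, 69.4 and 82.5 CPM at day 4 and 77.5 CPM at day 6. Day 4 and day 6 lay together, above day 2. Because the 0 h libraries held 3 reads in all, the rise to day 4 is given as a ratio of pooled CPM, 121 with an exact 95% interval of 41.0 to 589 that covers counting error only. The change passed the test at day 1 (edgeR adjusted p = 0.000706) and at day 4 (edgeR adjusted p = 2.23e-14), and it did not pass at 8 h (edgeR adjusted p = 0.213).

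Meis3, the third Meis paralogue, first passed the test at day 2, with 3 and 2 reads at 0 h, 1 and 2 reads at 8 h and 3 and 8 reads at day 1. It was at 8.24 and 9.32 CPM at day 2, 30.2 and 26.6 CPM at day 4 and 31.7 CPM at day 6. Against 0 h its log2 change was 2.92 at day 2 (standard error 0.57, edgeR adjusted p = 0.000171) and 4.53 at day 4 (standard error 0.46, edgeR adjusted p = 1.10e-08). The libraries of day 1 overlapped none of those of day 2, but their difference from 0 h did not pass the test (log2 fold change 1.42, standard error 0.73, edgeR adjusted p = 0.109).

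The Pbx genes, whose products pair with Meis and Hox proteins, differed from each other. Pbx3 was at 8.06 and 12.97 CPM at 0 h and 8.36 and 10.1 CPM at 8 h, which overlap. It was at 26.6 and 37.5 CPM at day 1, 36.1 and 42.4 CPM at day 2, 48.7 and 52.7 CPM at day 4, and 41.4 CPM at day 6. Pbx3 had a log2 fold change of 1.54 at day 1 (standard error 0.28, edgeR adjusted p = 4.64e-05) and 2.09 at day 4 (standard error 0.26, edgeR adjusted p = 1.27e-07). Pbx2 had 87.8 and 77.8 CPM at 0 h and 157 and 156 CPM at 8 h, and its other DMSO libraries lay between 123 and 166 CPM. Every later DMSO library of Pbx2 was above both 0 h libraries. Its log2 fold change of 0.99 at 8 h passed the adjusted p (standard error 0.15, edgeR adjusted p = 2.08e-05) and fell just short of the fold threshold, and the value at day 6 was 0.37 (edgeR adjusted p = 0.0802).

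Cdx1, the caudal gene that RA activates directly, was at 2.69 and 3.15 CPM at 0 h and at 88.3 and 71.8 CPM at 8 h. It held 87.4 and 74.9 CPM at day 1, 47.4 and 49.9 CPM at day 2, 4.06 and 4.20 CPM at day 4 and 6.17 CPM at day 6. The libraries of 8 h and day 1 overlapped, and those of day 2 lay under all of them. Against 0 h, Cdx1 was higher at 8 h (log2 fold change 4.80, standard error 0.28, edgeR adjusted p = 2.05e-12) and did not pass at day 4 (log2 fold change 0.33, edgeR adjusted p = 0.594). Between 8 h and day 4 in DMSO it fell by 4.47 on the log2 scale (standard error 0.27, edgeR adjusted p = 1.82e-13), while Meis1, Meis2, Meis3 and Pbx3 rose. Those 5 of 7 changes compare with 30.4% of all genes that changed in either direction between these times.

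Cdx2 was close to the floor in DMSO, with 1 and 3 reads at 0 h, 1 and 3 at 8 h, 8 and 1 at day 1, 7 and 9 at day 2, 1 and 1 at day 4 and 5 at day 6. It counted as higher at day 2 (log2 fold change 2.07, standard error 0.74, edgeR adjusted p = 0.0231). That call was lost with DESeq2 (adjusted p = 0.0837) and without replicate 1 of 0 h (edgeR adjusted p = 0.134) or replicate 2 of day 2 (edgeR adjusted p = 0.0970). In all, 4 of 7 genes were higher at day 1, 6 at day 2, 4 at day 4 and 4 at day 6, and no gene was lower at any of these times. The shares of all genes tested that were higher were 16.0%, 16.2%, 19.9% and 22.4%. The median log2 fold change of the 7 genes at day 4 was 2.09, beside 0.06 over all genes tested. Meis1, Meis2, Meis3, Cdx1 and Cdx2 passed the read filter only through groups after 0 h. The counts of genes higher and this median are therefore partly set by the filter.

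**Figure D1:**
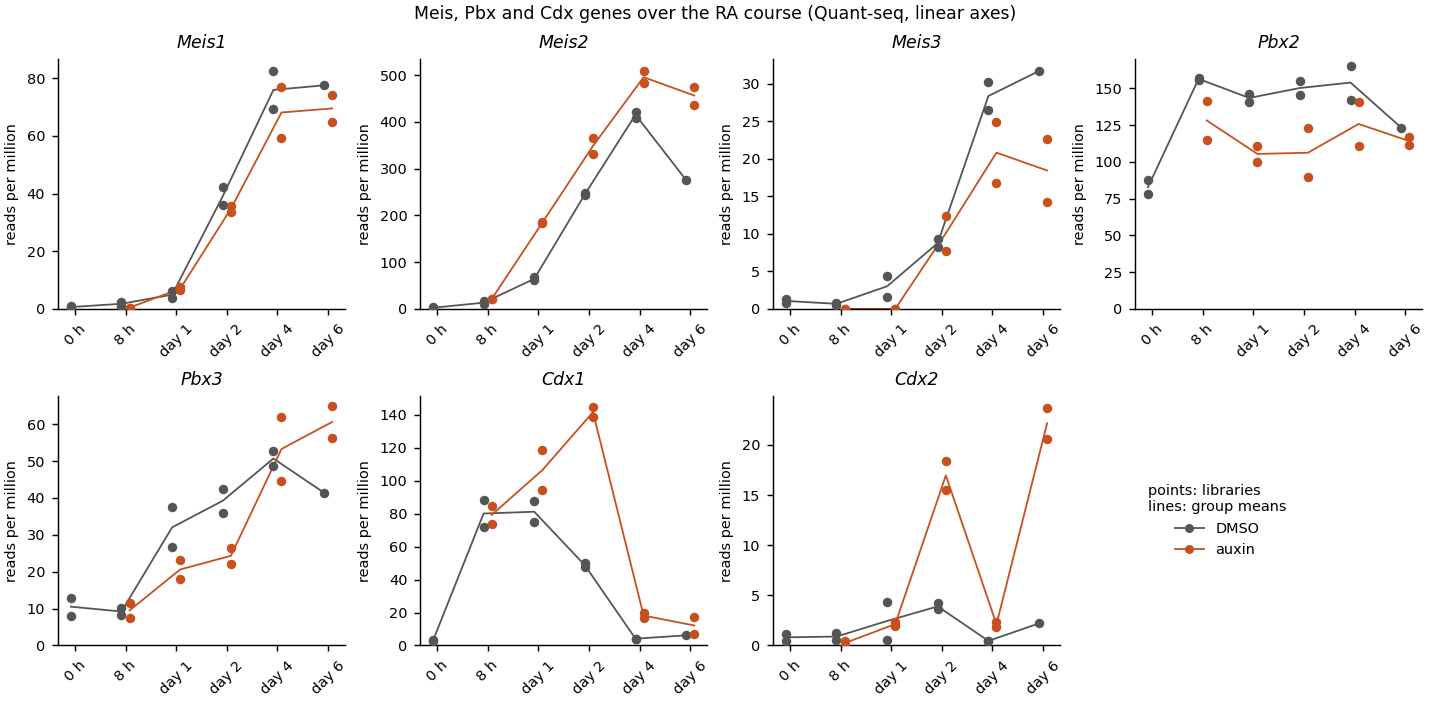
CPM (linear axis from 0) of each gene over the RA course, with one point per library and lines through the group means, DMSO in grey and auxin in orange-red. Meis1, Meis2, Meis3 and Pbx3 climb to day 4 in both, Cdx1 peaks early and lasts longer with auxin, and Cdx2 shows 2 peaks with auxin, at day 2 and day 6.

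The comparison of auxin with DMSO asks whether the genes are activated by RA when DPY30 is degraded. The sources used here do not give when auxin was added relative to RA, so the length of DPY30 loss at each time is not known. At 8 h 0 of 7 passed in either direction with edgeR, where 0.0175% of all genes were higher and 0.140% lower, and 4 (Meis1, Meis2, Meis3 and Pbx2) had an unadjusted p under 0.05. DESeq2 called 0 and gave no adjusted p for 4 of them. Cdx1 had 73.7 and 84.8 CPM at 8 h of RA with auxin, in the range of the DMSO libraries (log2 difference of auxin and DMSO −0.09, standard error 0.17, edgeR adjusted p = 0.901). Meis2 had 20.3 and 22.1 CPM, above both DMSO libraries, and its log2 difference of 0.61 did not pass (standard error 0.25, edgeR adjusted p = 0.346). Meis1 had 1 and 1 reads against 2 and 6 with DMSO, and Meis3 had 0 and 0 against 1 and 2, and neither passed after adjustment (edgeR adjusted p = 0.432 and 0.460).

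At day 1 Meis2 was higher with auxin. The auxin-treated libraries held 185 and 184 CPM, and both lay well above the 61.3 and 67.2 CPM of DMSO. The difference was 1.57 on the log2 scale (standard error 0.15, edgeR adjusted p = 7.33e-08), where 1.02% of all genes tested were higher. At day 2 the gap was smaller, with 331 and 366 CPM against 243 and 247 CPM (log2 fold change 0.43, standard error 0.12, edgeR adjusted p = 0.0177). At day 4 Meis2 stood at 509 and 482 CPM against 409 and 421 CPM, which do not overlap, but on the normalised scale the log2 fold change of 0.08 did not pass (standard error 0.11, edgeR adjusted p = 0.699). At day 6 it was at 437 and 475 CPM against 275 CPM (log2 fold change 0.59, standard error 0.15, edgeR adjusted p = 0.00545), and neither day 2 nor day 6 reached the fold threshold.

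Cdx1 stayed high for longer with auxin. It was at 94.3 and 118 CPM at day 1, at 144 and 139 CPM at day 2, and at 16.8 and 19.6 CPM at day 4. Both auxin-treated libraries lay above both DMSO libraries at each of these times. Its log2 fold change was 0.44 at day 1 (standard error 0.17, edgeR adjusted p = 0.122), 1.46 at day 2 (standard error 0.17, edgeR adjusted p = 1.11e-06) and 1.95 at day 4 (standard error 0.36, edgeR adjusted p = 0.000282). At day 6 the auxin-treated libraries held 17.2 and 7.12 CPM, against 6.17 CPM in DMSO, and the difference did not pass (log2 fold change 0.86, standard error 0.45, edgeR adjusted p = 0.187). With auxin Cdx1 fell from 8 h to day 4 by 2.43 on the log2 scale (standard error 0.21, edgeR adjusted p = 4.11e-10), less than with DMSO. The difference between these changes was 2.04 (standard error 0.40, edgeR adjusted p = 0.00168). Cdx1 was the 1 gene of 7 to pass that test, which 3.55% of all genes passed. With auxin 5 of 7 genes changed between 8 h and day 4, Cdx1 downwards and Meis1, Meis2, Meis3 and Pbx3 upwards, where 31.6% of all genes changed.

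Cdx2 was higher with auxin at 2 separate times. Its auxin-treated libraries had 0 and 1 reads at 8 h and 4 and 3 reads at day 1, then 34 and 26 reads at day 2, 3 and 4 reads at day 4 and 30 and 30 reads at day 6. In CPM that was 18.4 and 15.5 at day 2, 1.86 and 2.37 at day 4 and 20.6 and 23.7 at day 6. The 2 high times were thus parted by a low one, in both libraries. With DMSO it was at 3.90 and 0.46 CPM on average at days 2 and 4 and at 2.203 CPM in the day 6 sample, from 1 to 9 reads per library. Against DMSO the log2 fold change was 2.02 at day 2 (standard error 0.44, edgeR adjusted p = 0.00258) and 3.15 at day 6 (standard error 0.61, edgeR adjusted p = 0.000569). DESeq2 gave Cdx2 no adjusted p at day 2, so only Cdx1 passed there with it. Cdx2 entered the tests of the RA course only through its auxin-treated groups of day 2 and day 6, where it was high. A pass of Cdx2 at these times therefore says little. The day 6 test rests on 1 DMSO sample, which is assumed to vary like the other groups. At day 4 the ratio of auxin to DMSO was 4.63 in pooled CPM with an exact 95% interval of 0.882 to 45.7, which covers counting error only. Of the 7 genes, 2 were higher at day 2 (Cdx1 and Cdx2), 1 at day 4 (Cdx1) and 1 at day 6 (Cdx2), where 2.93%, 4.66% and 4.77% of all genes were higher.

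Meis1 did not pass the test between auxin and DMSO at any time. Its auxin-treated libraries held 7.57 and 6.44 CPM at day 1, 33.5 and 35.9 CPM at day 2, 76.9 and 59.3 CPM at day 4 and 74.2 and 64.9 CPM at day 6. The log2 fold change ran from −0.34 at day 4 to 0.56 at day 1 over these 4 times, with edgeR adjusted p between 0.195 and 0.504. Meis3 had 0 reads in both auxin-treated libraries of day 1, against 3 and 8 reads in DMSO, and counted as lower (edgeR adjusted p = 0.0237), where 1.38% of all genes were lower. Set against a floor of 3 counts per library, it was at least 1.64-fold lower. That call was lost with DESeq2 (adjusted p = 0.0537), and without replicate 2 of DMSO day 1 (edgeR adjusted p = 0.184) or either auxin-treated library of day 1 (edgeR adjusted p = 0.158 and 0.132). From day 2 Meis3 was read with auxin too, at 12.4 and 7.77 CPM, then at 16.8 and 24.9 CPM at day 4 and 22.7 and 14.2 CPM at day 6. At day 4 and day 6 these lay under every DMSO library, with log2 fold changes of −0.62 (standard error 0.29, edgeR adjusted p = 0.144) and −0.91 (standard error 0.35, edgeR adjusted p = 0.0723) that did not pass.

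The Pbx genes moved less than the fold threshold with auxin. Pbx2 was at 115 and 142 CPM at 8 h, 100.2 and 111 CPM at day 1, 123 and 89.7 CPM at day 2, 111 and 141 CPM at day 4 and 117 and 112 CPM at day 6. The auxin-treated libraries lay under the DMSO libraries at all 5 times, by 0.58 on the log2 scale at day 2 (edgeR adjusted p = 0.00938) and by 0.47 at day 4 (edgeR adjusted p = 0.0255), and the other 3 times did not pass. Pbx3 was at 18.1 and 23.2 CPM at day 1 and 26.5 and 22.1 CPM at day 2 with auxin, under the DMSO libraries of those times. It was at 62.0 and 44.5 CPM at day 4 and 56.3 and 64.9 CPM at day 6, where the libraries overlapped or lay above DMSO. Pbx3 differed by −0.77 on the log2 scale at day 2 (standard error 0.24, edgeR adjusted p = 0.0349) and by 0.41 at day 6 (standard error 0.26, edgeR adjusted p = 0.307). Over the 7 genes the median log2 fold change of auxin against DMSO was −0.11 at day 4 and 0.41 at day 6, beside 0.00 and 0.03 over all genes. Library scaling takes most genes as unchanged, so higher and lower with auxin are relative to the other RNA of a library. No spike-in entered these fits, and a change shared by all genes would not be seen.

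**Figure D2:**
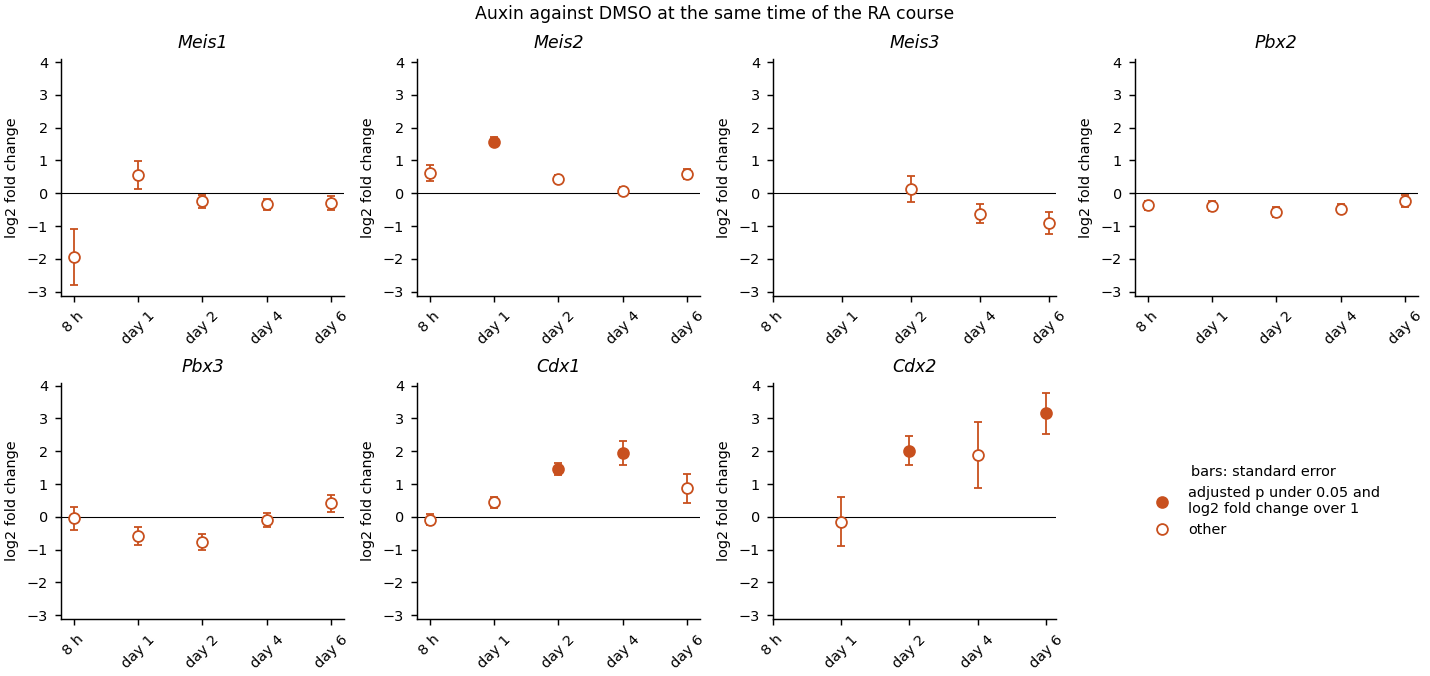
Log2 fold change of auxin against DMSO at the same time (linear axis), with bars for the standard error of the edgeR fit and filled points for changes that passed both thresholds. Points are left out where auxin-treated libraries held 0 reads or where no library of either group held more than 3 reads. Meis2 is filled at day 1, Cdx1 at day 2 and day 4, and Cdx2 at day 2 and day 6, all above 0.

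Other genes of the pathways were counted on lists chosen with earlier results of these data known. Over all genes tested, 19.9% were higher and 10.5% lower at day 4 of DMSO. With auxin against DMSO, 1.88% were lower at day 2, 2.59% at day 4 and 5.30% at day 6, beside 2.93%, 4.66% and 4.77% higher. The day 6 counts depended on the fit, at 545 genes higher and 605 lower of 11415 here and 76 and 176 of 10450 in a fit of those 2 groups alone. Without TMM scaling, day 4 gave 770 higher and 208 lower in place of 532 and 296, and day 6 gave 756 and 450, with the median of all genes at 0.18 and 0.17. Of 14 other TALE and Cdx genes, 10 were tested, and 4 rose and 0 fell at day 4 of DMSO against 0 h (median log2 fold change 0.83). They included the Iroquois genes Irx3 and Irx1. With auxin at day 4, 0 of the 10 passed (median −0.15). Of 12 Hox genes of paralogue groups 1 to 4, 9 were tested and 9 rose at day 4 of DMSO (median log2 fold change 6.97), among them Hoxb1, Hoxb2 and Hoxb3. With auxin, 1 of the 9 was higher at day 4 (Hoxb1, log2 fold change 1.51, edgeR adjusted p = 2.37e-10) and 2 were lower (Hoxb2 −1.41, edgeR adjusted p = 0.00324, and Hoxc4 −1.26, edgeR adjusted p = 0.00282). Of 27 Hox genes of groups 5 to 13, 17 were tested and 16 rose in DMSO by day 4 (median 6.55). Hox genes of either list that had almost no reads at 0 h passed the read filter only through later groups. The filter thus partly sets these counts of rises. Hoxa5 was at 261 ± 4.03 CPM at day 4, and Hoxc9 and Hoxc8 went from 0 reads at 0 h to 86.3 ± 13.1 and 28.0 ± 5.87 CPM (SD, n = 2). With auxin 12 of these 17 were lower at day 2 (median −1.63), and at day 4 5 were lower, with the largest changes in Hoxa10 (−2.23, edgeR adjusted p = 0.00563), Hoxc9 (−2.14, edgeR adjusted p = 4.23e-07) and Hoxa5 (−1.96, edgeR adjusted p = 7.16e-11). At day 6, 4 of the 17 were higher and 2 lower. At day 2, Cdx1 and Cdx2 were higher with auxin while these 12 Hox genes were lower. Of the 9 Hox genes of groups 1 to 4, 0 were higher with auxin and 3 were lower at day 2 (median −0.96). Lower levels at day 2 were thus not limited to groups 5 to 13.

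Of 20 genes of the RA pathway, 19 were tested, and 12 rose and 3 fell at day 4 of DMSO. The RA-degrading enzyme genes Cyp26b1 and Cyp26a1 went from 0 reads at 0 h to 229 ± 30.8 and 119 ± 18.8 CPM (SD, n = 2), and the receptor gene Rarb rose too (log2 fold change 7.43, standard error 0.51, edgeR adjusted p = 2.97e-12). With auxin at day 4, 3 were higher, the receptor gene Rxra (1.95, edgeR adjusted p = 6.71e-05), the RA-synthesising enzyme gene Aldh1a3 (1.80, edgeR adjusted p = 3.28e-05) and Cyp26b1 (1.02, edgeR adjusted p = 4.26e-05), and 0 were lower. At day 1, 1 of the 19 was higher and 1 lower, and at day 2, 2 were higher and 0 lower. The list median with auxin was 0.44 at day 6. Of 16 genes of the tail bud and posterior axis, in which Cdx genes act, only 4 passed the read filter. Of these, 3 rose at day 4 of DMSO (Sp8, Gdf11 and Wnt5a), and 0 changed with auxin at that time. With auxin 1 of the 4 was higher at day 2 (Lef1) and 1 at day 6 (Gdf11), and 0 were lower.

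Markers of other cell types moved over the same course, and fewer cells of a type cannot be told apart from less RNA per cell in these bulk samples. All 14 markers of primitive and parietal endoderm rose at day 4 of DMSO, led by Dab2, Foxa2 and Gata4. Their summed level was 448 to 473 CPM at 0 h, 8347 to 8455 CPM at day 4 and 14783 CPM at day 6 in DMSO. With auxin it was 2790 to 2865 CPM at day 4 and 3490 to 3514 CPM at day 6, and 11 of 14 were lower than with DMSO at day 4 (among them Sparc and Dab2) and 14 of 14 at day 6. Trophectoderm markers, the lineage that requires Cdx2, summed to 84.2 to 97.1 CPM at 0 h, with 4 of 14 genes at 0 reads. At day 2 they summed to 329 to 365 CPM with DMSO and 264 to 287 CPM with auxin, and 1 of 13 tested was higher and 1 lower. At day 4, 8 of 13 tested rose in DMSO, with the largest fold changes in Gata3, Plac1 and Krt18, the first 2 from 0 reads at 0 h. With auxin 3 were higher, Krt7 and Gata2 the most, and 1 was lower (Eomes) at day 4. At day 6 the sum was 2030 CPM with DMSO and 1522 to 1661 CPM with auxin, and 1 of 13 was higher with auxin (Krt7) and 3 lower (Hand1, Gata2 and Plac1), with a median of −0.48. Of 13 ES cell markers, 8 fell by day 4 of DMSO (largest in Tdgf1, Klf2 and Esrrb), and with auxin 3 were higher, Dppa3 and Klf2 the most, and 1 was lower (Dppa5a), with a list median of −0.36. The ES cell markers summed to 4950 to 5016 CPM with DMSO and 3574 to 3645 CPM with auxin at day 4, and to 8270 to 8332 and 6078 to 6096 CPM at day 1. At day 1, 0 of the 13 passed in either direction with auxin, and the list median was 0.33, opposite in direction to the sum. The sum was also lower with auxin at 8 h (6879 to 6880 against 7839 to 8087 CPM) and at day 2 (4415 to 4513 against 5533 to 5591 CPM). At day 6 the sum was 3029 to 3041 CPM with auxin and 2973 CPM with DMSO, and 6 of 13 were higher with auxin and 0 lower. Of 7 neural markers tested, 3 rose, Sox11 and Map2 the most, and 3 fell, Elavl3 the most, in DMSO by day 4, and 1 was lower with auxin at day 4 (Sox1). At day 6, 4 of these 7 were higher with auxin (Elavl3, Map2, Tubb3 and Stmn2) and 0 lower (median 1.03), and the neural list summed to 520 to 557 CPM with auxin against 286 CPM with DMSO. Of 4 hindbrain markers tested, 2 rose, among them Fgf3, and 1 fell (Gbx2), and 0 changed with auxin at day 4 or day 6. The part of these cell types in the members' levels was not tested.

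The genes most like each member over the course were ranked by Pearson's r of mean log2 CPM over the 11 Quant-seq groups, which share libraries and depth, as a description. Among the genes most like Meis1 were Gramd3 (r = 0.99) and Tes (0.99). Meis2 was most like Nek9 (0.99), Cuedc1 (0.98) and Stox2 (0.98), Meis3 like Heca (0.97), Tmem98 (0.97) and Btd (0.97), and Pbx3 like Sox6 (0.98), Zfp362 (0.97) and Nbea (0.97). The other members had weaker matches. Pbx2 was most like Ier5l (0.86), Oaz2 (0.85) and Eme2 (0.85), Cdx1 like Cacng6 (0.95), Ampd1 (0.94) and Smyd4 (0.93), and Cdx2 like Dusp2 (0.94), Mdh2 (0.90) and Alox5 (0.90). Among the members, r was between 0.71 and 0.92 for the 6 pairs of Meis1, Meis2, Meis3 and Pbx3, and 0.16 for Cdx1 and Cdx2.

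Before ligand, the mES cell lines differed in these genes, and 6 of the 7 were tested, Meis3 having at most 5 reads in each 0 h library. Meis2 was at 43.5, 34.2 and 49.3 CPM in DPY30–mAID cells, at 38.4 and 28.0 CPM in dKO cells and at 13.4, 21.4 and 13.4 CPM in RBBP5–FKBP cells. RBBP5–FKBP libraries lay under all the others, with a log2 fold change of −1.40 against DPY30–mAID cells (standard error 0.28, edgeR adjusted p = 0.00325). Pbx3 was higher in RBBP5–FKBP cells, at 24.0, 11.9 and 24.0 CPM against 6.35, 6.77 and 6.88 CPM (log2 fold change 1.56, standard error 0.43, edgeR adjusted p = 0.0231). That call was lost without any 1 of the DPY30–mAID replicates 1, 2 and 3 or the RBBP5–FKBP replicates 1 and 3, with edgeR adjusted p between 0.0550 and 0.0708. So 2 of 6 genes changed, where 6.18% of all genes did. These DPY30–mAID cells had far more Meis2 than the 0.896 and 3.93 CPM of the 0 h Quant-seq libraries of the same line, and the assay, the label and the culture cannot be told apart there.

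The Cdx genes had their highest levels in the dKO line. All dKO libraries also held fewer T positions per counted read, 11.2 to 11.3 against 18.4 to 19.0 in DPY30–mAID and 17.97 to 18.99 in RBBP5–FKBP libraries, and more reads, so the line and the sequencing of its libraries cannot be told apart in any comparison between lines. Cdx2 had 26 and 38 reads in the 0 h dKO libraries, 3.82 and 4.88 CPM, against 3, 0 and 0 reads in DPY30–mAID cells, and the RBBP5–FKBP libraries had 5, 1 and 0 reads. Cdx2 was tested between the lines only because of the dKO group, where it was high, so a pass there says little. The ratio of dKO to DPY30–mAID in pooled CPM was 11.1 with an exact 95% interval of 3.64 to 55.4, for counting error only. The test over all genes did not pass (edgeR adjusted p = 0.0896), and it passed with all SLAM-seq libraries in a single fit (edgeR adjusted p = 0.0249) and without replicate 1 of DPY30–mAID cells (edgeR adjusted p = 0.0344). Cdx1 was at 14.4 and 15.0 CPM in dKO cells, above the 9.28, 3.92 and 2.54 CPM of DPY30–mAID cells, and had 0, 15 and 0 reads in RBBP5–FKBP cells. Its log2 fold change of 1.48 in dKO cells did not pass (standard error 0.87, edgeR adjusted p = 0.217). Of the 6 genes, 0 passed in dKO against DPY30–mAID cells with edgeR, where 17.7% of all genes changed, and 1 (Cdx2) had an unadjusted p under 0.05. DESeq2 also called 0. Pbx2 was at 36.6, 41.0 and 34.8 CPM in DPY30–mAID, 47.2 and 49.2 CPM in dKO and 37.4, 29.4 and 26.5 CPM in RBBP5–FKBP cells, and Meis1 had at most 14 reads in any 0 h library.

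**Figure D3:**
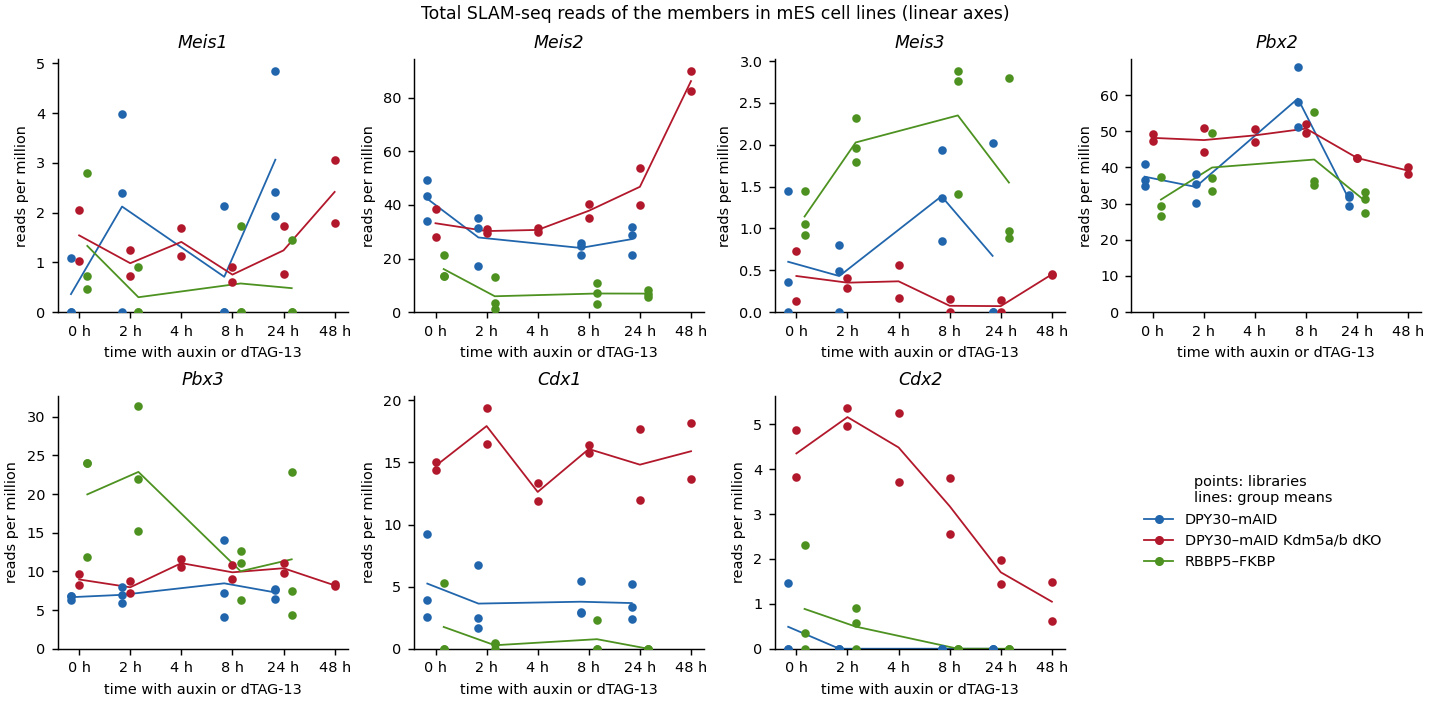
Total SLAM-seq CPM (linear axis from 0) of each gene by time with auxin (DPY30–mAID and dKO cells) or dTAG-13 (RBBP5–FKBP cells), with one point per library and lines through the group means. Cdx1 and Cdx2 are highest in dKO cells, Meis2 reaches 82.5 and 90.0 CPM in dKO cells at 48 h, and mean Cdx2 there is 5.16 CPM at 2 h and 1.05 CPM at 48 h.

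After ligand, mean Meis2 levels were lower than at 0 h in DPY30–mAID and RBBP5–FKBP cells at each time. In dKO cells they were higher than at 0 h by 8 h, 24 h and 48 h, and only the rise at 48 h passed the test. In DPY30–mAID cells its total reads were at 31.2, 17.1 and 35.3 CPM at 2 h, 26.0, 21.3 and 24.6 CPM at 8 h and 21.3, 28.6 and 31.9 CPM at 24 h. All libraries of 8 h and 24 h lay under all those of 0 h. The log2 fold change was −0.92 at 8 h (standard error 0.28, edgeR adjusted p = 0.0193), short of the fold threshold, and −0.64 at 24 h (standard error 0.27, edgeR adjusted p = 0.0650). In RBBP5–FKBP cells it was at 2.88, 7.18 and 10.8 CPM at 8 h and 8.42, 5.59 and 6.75 CPM at 24 h, again under all 0 h libraries, and the log2 fold changes of −1.23 and −1.24 did not pass (edgeR adjusted p = 0.225 and 0.225).

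In dKO cells Meis2 was at 29.4 and 31.1 CPM at 2 h and 31.5 and 29.8 CPM at 4 h, within the range of the 0 h libraries. It was at 35.3 and 40.4 CPM at 8 h, which overlaps 0 h, 53.8 and 39.8 CPM at 24 h and 82.5 and 90.0 CPM at 48 h. The libraries of 24 h and 48 h lay above both 0 h libraries. It rose at 48 h (log2 fold change 1.30, standard error 0.15, edgeR adjusted p = 3.83e-05), and the change of 0.45 at 24 h did not pass (standard error 0.15, edgeR adjusted p = 0.0751). The changes at 24 h in dKO and DPY30–mAID cells were compared in 1 fit, a test added after the values were seen. They differed by 1.07 (standard error 0.32, edgeR adjusted p = 0.0186), and 7.32% of all genes passed that test. At 8 h the difference of 1.06 did not pass (standard error 0.33, edgeR adjusted p = 0.0615), where 1.69% of all genes did. It passed with the replicate block (1.06, edgeR adjusted p = 0.0434), without the read filter (1.10, edgeR adjusted p = 0.0327), with DESeq2 (1.09, adjusted p = 0.0201) and without DPY30–mAID replicate 2 of 0 h (1.19, edgeR adjusted p = 0.0375). The 24 h call was lost without DPY30–mAID replicate 3 of 0 h or replicate 1 of 24 h, or without dKO replicate 2 of 0 h or replicate 1 of 24 h, at differences between 0.83 and 0.95. No DPY30–mAID library of 48 h was analysed here.

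Cdx2 fell in dKO cells after auxin. It had 34 and 39 reads at 2 h, 37 and 22 at 4 h, 17 and 25 at 8 h, 10 and 13 at 24 h and 4 and 10 at 48 h, against 26 and 38 at 0 h. The libraries of 8 h and later lay under both 0 h libraries in CPM. On the log2 scale the change was −1.41 at 24 h (standard error 0.40, edgeR adjusted p = 0.0341) and −2.12 at 48 h (standard error 0.44, edgeR adjusted p = 0.00429). The 24 h call was lost without either dKO library of 0 h or either of 24 h, with edgeR adjusted p between 0.0549 and 0.215, and DESeq2 gave Cdx2 no adjusted p there. In the 9 DPY30–mAID libraries with auxin, Cdx2 had 0 reads, so no change could be followed there. The direction in dKO cells is opposite to that of the RA course, where Cdx2 was higher with auxin than with DMSO at day 2 and day 6. These comparisons also differ in genotype, RA treatment, reference group and assay, so they are not like for like.

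Pbx2 was at 51.1, 58.1 and 67.9 CPM in DPY30–mAID cells at 8 h, above all 0 h libraries, and back to 29.3, 32.5 and 31.9 CPM at 24 h, and neither change passed (log2 fold change 0.55, edgeR adjusted p = 0.107, and −0.28, edgeR adjusted p = 0.392). In dKO cells Pbx2 was at 38.1 and 40.1 CPM at 48 h, which is −0.39 on the log2 scale (standard error 0.10, edgeR adjusted p = 0.0197) under the fold threshold. Cdx1 stayed between 11.9 and 19.4 CPM in all 12 dKO libraries, and Pbx3 between 7.16 and 11.6 CPM. Of the members tested in total reads, 0 of 4 passed in DPY30–mAID cells at 8 h and 24 h, where 4.17% and 13.2% of all genes changed. In RBBP5–FKBP cells 0 of 3 passed at either time, where 4.31% and 3.48% changed. In dKO cells 0 of 6 passed at 8 h, 1 at 24 h (Cdx2, and 0 with DESeq2) and 2 at 48 h (Cdx2 and Meis2), where 0.00878%, 1.46% and 2.42% of all genes changed. The counts of 0 are from edgeR, and 2 members in DPY30–mAID cells at 8 h (Meis2 and Pbx2) and 1 at 24 h (Meis2) had an unadjusted p under 0.05, with 0 in RBBP5–FKBP cells and 0 in dKO cells at 8 h. DESeq2 called 0 in these 5 comparisons and gave no adjusted p for 4 of the 6 members in dKO cells at 8 h.

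T>C reads, which mark RNA made during the last 60 min, were few. Meis2 had 24, 33 and 40 T>C reads in DPY30–mAID cells at 0 h, 15, 9 and 4 at 8 h and 12, 19 and 21 at 24 h. Every library with auxin was under every 0 h library. At 8 h the log2 fold change was −1.68 (standard error 0.59, edgeR adjusted p = 0.0408), beside a median of −0.72 over all genes tested, and the call was lost without TMM, without the read filter, with scaling to T>C reads and without any 1 of replicates 1, 2 and 3 of 0 h or replicates 2 and 3 of 8 h (edgeR adjusted p between 0.0702 and 0.324). In dKO cells Meis2 had 23 and 26 T>C reads at 0 h, 38 and 14 at 24 h and 25 and 25 at 48 h. The log2 fold change at 48 h was 0.07 (standard error 0.38, edgeR adjusted p = 0.861), beside a median of −1.29 over all genes. With library sizes scaled to T>C reads it was 1.37 and passed (edgeR adjusted p = 0.00873).

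Pbx2 had 12 and 10 T>C reads in dKO cells at 0 h and 2 and 3 at 48 h, which is −2.04 on the log2 scale (standard error 0.75, edgeR adjusted p = 0.0126) and did not pass with scaling to T>C reads (edgeR adjusted p = 0.640). Without dKO replicate 1 of 0 h or of 48 h it did not pass either (edgeR adjusted p = 0.0665 and 0.0809). In DPY30–mAID cells it had 13, 15 and 10 T>C reads at 0 h and 2, 5 and 1 at 24 h, which do not overlap, and the change did not pass (log2 fold change −2.08, standard error 0.84, edgeR adjusted p = 0.154). Cdx2 in dKO cells had 2 and 4 T>C reads at 0 h, 14 and 6 at 2 h and 2 and 0 at 48 h. Of 2 members tested in DPY30–mAID cells (Meis2 and Pbx2), 1 was lower at 8 h and 0 at 24 h, where 14.8% and 3.50% of all genes changed. In RBBP5–FKBP cells 1 member (Pbx3) was tested and did not pass at 8 h or 24 h, where 5.57% and 23.0% changed. In dKO cells 0 of 3 passed at 8 h and at 24 h and 1 (Pbx2) at 48 h, where 0.604%, 27.2% and 64.7% of all genes changed. These counts of 0 are from edgeR. Pbx2 had an unadjusted p under 0.05 at 24 h in DPY30–mAID and in dKO cells, and no other member did in these comparisons. DESeq2 called 0 in each and gave no adjusted p at 8 h for the 3 members in dKO cells or for Pbx3 in RBBP5–FKBP cells.

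**Figure D4:**
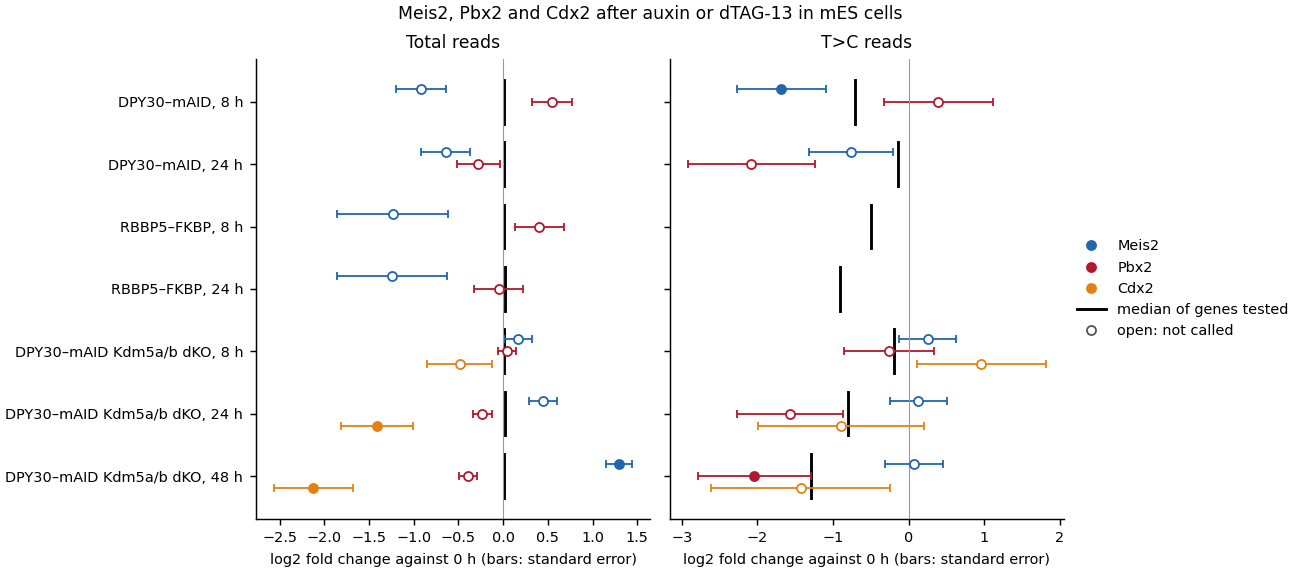
Log2 fold change against 0 h of Meis2, Pbx2 and Cdx2 in total reads (left) and T>C reads (right), by line and time, with bars for the standard error of the edgeR fit, filled points where both thresholds were passed and black ticks at the median of all genes tested. Meis2 lies left of 0 in DPY30–mAID and RBBP5–FKBP cells and right of 0 in dKO cells in total reads, and Cdx2 is filled at 24 h and 48 h in dKO cells.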

How the data were processed

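The authors deposited counts per 3′ UTR interval for 58 libraries, with all reads, T>C reads and multimapping reads in each of 46420 intervals of GRCm38. The file headers name slamdunk 0.3.4, while the submitters' processing notes list HISAT2 2.2.1 and featureCounts for the series, and the headers were followed. Intervals were summed per gene, and CPM were computed from the counts. The total count per library was its depth, and intervals cover counting error only.

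Groups came from the labels. All RA groups were fitted together, each SLAM-seq line alone, and the 0 h SLAM-seq libraries together, with edgeR 4.0.16 in R 4.3.3 (TMM, quasi-likelihood test, genes averaging 10 or more reads in some group, Benjamini-Hochberg adjustment). T>C reads used the sizes and TMM factors of total reads. The fits were tested on simulated data. Same-numbered pairs had a mean r of 0.00108 over the RA course (−0.189 to 0.282) and 0.0480 in dKO cells (−0.0984 to 0.338), so no block was used in the main fits. These means cannot exclude that some libraries were paired, and the labels do not say. The alternatives included DESeq2 1.42.0 and leaving out each library. The members and lists were chosen with earlier results of these data known. All 7 members were named, and of each list the 3 genes with the largest fold change among those that passed at day 4. Lef1 at day 2, and Hand1, Tubb3 and Stmn2 at day 6, fall outside this rule and were chosen after their values were seen. Kdm5a and Pou5f1 were added as checks. Some genes that this rule names are not reported here.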

Additional observations from a re-analysis of the deposited data

Results flagged for a closer look

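Cdx1 changed differently from 8 h to day 4 of RA with auxin and with DMSO, by a log2 difference of 2.04 in edgeR's interaction test. It fell in both, and both auxin-treated libraries of day 4 lay above both DMSO libraries.

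The changes of total Meis2 reads between 0 h and 24 h of auxin differed between dKO and DPY30–mAID cells by 1.07 on the log2 scale in edgeR's interaction test, which was added after the values were seen. Neither change passed alone (0.45, edgeR adjusted p = 0.0751, and −0.64, edgeR adjusted p = 0.0650), and the difference was 0.83 to 0.95 and did not pass in 4 fits that left out 1 library each. Every 24 h library lay above every 0 h library in dKO cells and below every one in DPY30–mAID cells. Meis2 was also below every 0 h library in all RBBP5–FKBP libraries of 24 h of dTAG-13 and above every 0 h library in both dKO libraries of 24 h of auxin, a difference of −1.65 in the log2 ratio of mean CPM with 0.5 added (RBBP5–FKBP minus dKO). The last difference was not tested, and the ligand differs between these lines.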

How the results depend on the processing

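All counts here are of members that passed. Without the fold threshold, auxin against DMSO gave 2 lower in place of 0 at day 2 (Pbx2 and Pbx3), 1 in place of 0 lower at day 4 and 2 in place of 1 higher at day 6, and total reads gave 1 in place of 0 lower in DPY30–mAID cells at 8 h and 2 in place of 1 lower in dKO cells at 48 h. DESeq2 gave 0 in place of 1 lower with auxin at day 1 and 1 in place of 2 higher at day 2 (Cdx2 without an adjusted p). It also gave 0 in place of 1 lower in dKO cells at 24 h, where Cdx2 had no adjusted p. A fit of the 2 groups alone gave 0 lower with auxin at day 1 because Meis3 was under its read filter and was not tested. All SLAM-seq libraries in 1 fit gave 1 in place of 0 higher in dKO against DPY30–mAID cells. In T>C reads, leaving out TMM, leaving out the read filter and scaling to T>C reads each gave 0 in place of 1 lower in DPY30–mAID cells at 8 h, and scaling to T>C reads gave 1 in place of 0 higher and 0 in place of 1 lower in dKO cells at 48 h. The added difference between dKO and DPY30–mAID cells at 8 h went from 0 to 1 higher (Meis2) with DESeq2, without the read filter and with the replicate block (log2 difference 1.06, edgeR adjusted p = 0.0434). The replicate block changed no other member's call, and the labels do not say whether same-numbered libraries belong together. Leaving out 1 library gave 0 to 1 for the counts lower with auxin at day 1 and day 6, higher in dKO and in RBBP5–FKBP against DPY30–mAID cells, lower in DPY30–mAID cells at 8 h (total and T>C), lower in dKO cells at 24 h (total) and 48 h (T>C), and the added differences at 8 h (higher) and 24 h (higher and lower), and 1 to 2 lower in RBBP5–FKBP against DPY30–mAID cells. No member's fold change reversed where it had passed. Over all genes, the counts moved by over 1.5 times in 25 of 62 comparisons and directions with DESeq2 (at day 4, 225 higher and 197 lower with auxin in place of 532 and 296) and in 14 of 14 with scaling to T>C reads (dKO cells at 48 h, 112 lower in place of 3850). They moved in 45 of 62 without the fold threshold and in 95 of 310 on leaving out 1 library, so the shares of all genes depend on single libraries too. T>C reads of DPY30–mAID cells gave 1881 genes lower at 8 h without replicate 1 of 8 h and 481 without replicate 3, in place of 924, and at 24 h 26 lower and 9 higher without replicate 3 of 24 h, in place of 170 and 51. Meis1, Meis3 and Cdx2 had few reads at several times, where depth limits the precision.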
